A study of Rattus norvegicus with 48 samples.

Results

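miR-149-5p (rno-miR-149-5p) is a mature microRNA (miRNA), 1 of 645 rat miRNAs listed in the small RNA-sequencing counts of blood plasma from rats whose calvaria, the roof of the skull, had been drilled. It was chosen by its measured level, which lay below baseline at each of the 3 times sampled after surgery, so its course over time is described here without a test. The 10 miRNAs that followed it most closely across the 48 samples were then found among the 310 miRNAs with a mean of at least 10 RPM, the reads per 1000000 miRNA reads.

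The study asked whether miRNAs circulating in the blood differ between rats that close a calvaria defect well and rats that do not. Each of 12 rats gave plasma once as a baseline, prior to the operation, and again 1, 4 and 8 weeks later, so 12 samples stand at each time. From a larger set of operated rats the study chose the best and the worst healers by bone volume in micro-computed tomography. So 6 rats were strong (“good”) regenerators (rats 2, 5, 17, 21, 23 and 29) and 6 were weak (“bad”) regenerators (rats 3, 6, 7, 16, 25 and 26). The groups are chosen extremes, and rats that healed to a degree between them are not covered. Regeneration is labelled unknown in the baseline samples, so the later label of the same animal was used there.

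All rats were male, 12 weeks old and carried a calvaria defect. The strain is Sprague-Dawley in the study's methods and Wistar elsewhere in its text. The defects were left empty, or were filled with a collagen hydroxyapatite scaffold that was plain, carried plasmid DNA for BMP2 and miR-590-5p, or carried vesicles of human mesenchymal stromal cells. The labels do not give the treatment of each rat, and the 2 regeneration groups held the treatments in unequal numbers, so treatment and regeneration cannot be told apart. No uninjured rats were followed, so healing, age and the repeated bleeding cannot be told apart either.

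A miRNA is cut from a hairpin precursor and guides the silencing complex to messenger RNAs that pair with its seed, the bases near its 5′ end. The hairpin of miR-149 has been studied in tumours, in inflammation and in cartilage, and messenger RNAs of inflammatory signalling are among the reported targets of its 5p arm. Plasma miRNAs come from blood cells and from many tissues and travel bound to proteins or in vesicles, so a plasma level names no cell of origin.

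The mature sequences of miR-149-5p and of the miRNAs nearest to it are shown because they show which of them could share targets through a common seed. They are RefSeq sequences on the rat build GRCr8, written 5′ to 3′ with the seed (bases 2 to 8) in capitals. RefSeq places miR-149-5p at chr9:100861814-100861836 on the plus strand, within the span of Gpc1, which encodes glypican 1, a heparan sulfate proteoglycan of the cell surface.
miR-149-5p: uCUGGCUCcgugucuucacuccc
miR-140-3p: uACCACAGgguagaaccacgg
miR-140-5p: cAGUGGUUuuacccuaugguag
miR-455-3p: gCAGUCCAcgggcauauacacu
miR-503-5p: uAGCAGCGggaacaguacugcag
miR-503-3p: gGAGUAUUguuuccgcugccugg
miR-322-5p: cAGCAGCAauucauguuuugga
miR-322-3p: aAACAUGAagcgcugcaaca
miR-351-3p: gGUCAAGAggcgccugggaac
miR-152-3p: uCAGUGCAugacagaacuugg

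The seed CUGGCUC of miR-149-5p was found in no other listed miRNA among the 583 of 645 that matched a RefSeq sequence, and none of the nearest miRNAs shown carries it. miR-322-5p shares its seed with miR-15b-5p, miR-16-5p, miR-195-5p and miR-497-5p, and miR-152-3p shares its seed with miR-148a-3p and miR-148b-3p. With 60.9% G and C, miR-149-5p is richer in these bases than 87.1% of the 279 abundant miRNAs that have a sequence, whose median is 47.6%.

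The 89-base hairpin at chr9:100861800-100861888 is shown with miR-149-5p in capitals, to place the measured arm in its precursor.
Mir149 hairpin: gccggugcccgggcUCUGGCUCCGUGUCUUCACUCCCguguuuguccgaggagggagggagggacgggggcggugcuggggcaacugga

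The 5p arm fills bases 15 to 37 and the other arm, miR-149-3p, bases 61 to 78. miR-149-3p is not listed in the counts, so every value here belongs to the 5p arm.

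The samples held between 393259 and 1586398 miRNA reads (median 796311). UniSp2, a synthetic RNA of the spike-in mix added at RNA extraction, amounted to between 23.3 and 60.4 reads for every 1000 miRNA reads in 36 samples up to week 4. At week 8 it amounted to 91.1 to 144, so the 12 samples of that week stood apart. Time point and any difference in handling between time points cannot be told apart.

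miR-149-5p was read in every sample, with 31 to 486 reads. Its mean of 230 RPM ranked it 138th of 645 miRNAs, at 0.0236% of all miRNA reads. By time point its rank went from 115th at baseline to 139th at week 1, 146th at week 4 and 167th at week 8. The sample with the fewest reads, that of weak rat 7 at week 8, had 78.8 RPM with a 95% exact Poisson interval of 53.6 to 112, which covers counting error only.

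At baseline the strong regenerators had 356, 445 and 512 RPM as the lowest, median and highest value. The weak regenerators had 247, 375 and 418 RPM. The groups overlapped, and weak rat 3 was lowest by a wide margin.

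At week 1 the strong regenerators had 155, 198 and 337 RPM. The weak regenerators had 107, 228 and 268 RPM. The groups overlapped, with strong rats 21 and 29 highest and weak rat 3 again lowest.

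At week 4 the strong regenerators had 132, 216 and 295 RPM. The weak regenerators had 128, 179 and 242 RPM. Rats 21 and 29 were again the highest, and the lowest values, those of rats 6 and 23, came from both groups.

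At week 8 the strong regenerators had 74.1, 129 and 163 RPM. The weak regenerators had 64.9, 70.6 and 139 RPM. All weak rats but rat 25 lay between 64.9 and 78.8 RPM, whereas strong rats 2 and 5 had 74.1 and 92.4 RPM and the other strong rats 125 to 163 RPM.

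**Figure D1:**
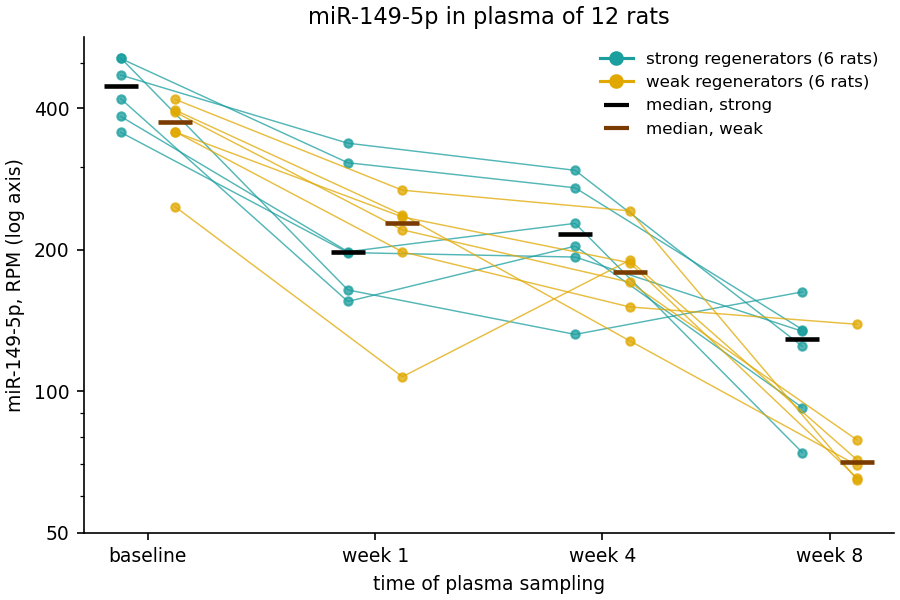
miR-149-5p in RPM (log axis) at baseline and at weeks 1, 4 and 8, 1 point per sample, with a line for each of the 6 strong and 6 weak regenerators and a bar at each group median. The median of the strong regenerators goes from 445 to 129 RPM and that of the weak regenerators from 375 to 70.6 RPM, with all 12 week 8 samples under the lowest baseline sample.

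Over all rats miR-149-5p averaged 402 ± 73.9 RPM before the operation. It averaged 219 ± 64.3, 199 ± 52.2 and 101 ± 35.4 RPM 1, 4 and 8 weeks later (mean ± SD, n = 12 each). The log2 fold change against baseline in the edgeR fit was −0.80 (SE 0.14) at week 1, −0.93 (SE 0.14) at week 4 and −1.94 (SE 0.15) at week 8. The median rat retained 56.0% of its baseline RPM at week 1, 53.0% at week 4 and 24.3% at week 8.

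Each of the 12 rats was below its own baseline at each of the 3 times. Of the 310 abundant miRNAs, 3.87% were lower in all 12 rats at week 1, 6.77% at week 4 and 20.6% at week 8. Since this pattern chose miR-149-5p, nothing is read from its own place among them.

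The ranges moved apart step by step. At week 1, 9 of 12 samples lay below the lowest baseline sample of 247 RPM, and at week 4, 10 of 12 did. At week 8 all 12 did, the highest being 163 RPM, which also held for 9.68% of the abundant miRNAs.

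The course was not even. From week 1 to week 4 the log2 fold change was −0.12 (SE 0.14), and rats 2, 3 and 5 rose while the other 9 fell. From week 4 to week 8 it was −1.02 (SE 0.15), and rat 23 alone rose, from 132 to 163 RPM. The other 8 rats went down at every step, and week 8 held the lowest value in 11 rats.

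The coefficient of variation over the 12 rats was 18.4%, 29.4%, 26.2% and 35.0% from baseline to week 8, where counting alone would give 5.43%, 7.84%, 7.90% and 13.5%.

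The order of the rats was compared between time points. Between baseline and week 1 the levels of the 12 rats gave a Pearson r of 0.64 (permutation p = 0.0303, 0.182 after Benjamini-Hochberg adjustment over 6 pairs of time points) and a Spearman rho of 0.39 (permutation p = 0.210, adjusted 0.492). Between week 4 and week 8 r was −0.03 and rho −0.06 (permutation p = 0.937 and 0.849). Without the 2 rats farthest from the median of the earlier time, r was 0.64 between baseline and week 1, but it moved from 0.19 to 0.68 between baseline and week 4, from 0.48 to 0.25 between baseline and week 8 and from −0.03 to −0.39 between weeks 4 and 8. No pair of time points passed the adjusted test, so no lasting order of the rats was shown.

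The size of the fall depended on what the reads were set against. Before the operation there were 11.96 ± 2.57 miR-149-5p reads per 1000 UniSp2 reads. From week 1 to week 8 there were 5.48 ± 0.87, then 4.76 ± 0.59 and then 0.830 ± 0.279 (mean ± SD, n = 12 each). Scaled to UniSp2 the log2 fold changes against baseline were −1.12 (SE 0.14), −1.33 (SE 0.14) and −3.84 (SE 0.16). On that scale the median abundant miRNA was also lower, by log2 fold changes of −0.32, −0.29 and −2.01, so week 8 in particular was low for most miRNAs relative to the spike-in. Less miRNA in the plasma and a different yield of the spike-in cannot be told apart here.

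The rats were closer together on the UniSp2 scale at weeks 1 and 4. The coefficient of variation of miR-149-5p was 15.8% against 29.4% in RPM at week 1, and 12.3% against 26.2% at week 4. Among the 310 abundant miRNAs it had the 5th smallest coefficient of variation on the UniSp2 scale at week 1 and the smallest at week 4. Dividing by UniSp2 lowered the coefficient for 29.7% of these miRNAs at week 1 and for 18.4% at week 4. At baseline the coefficient was 21.5% against 18.4% in RPM and at week 8 33.6% against 35.0%. This comparison was chosen after the values had been seen.

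**Figure D2:**
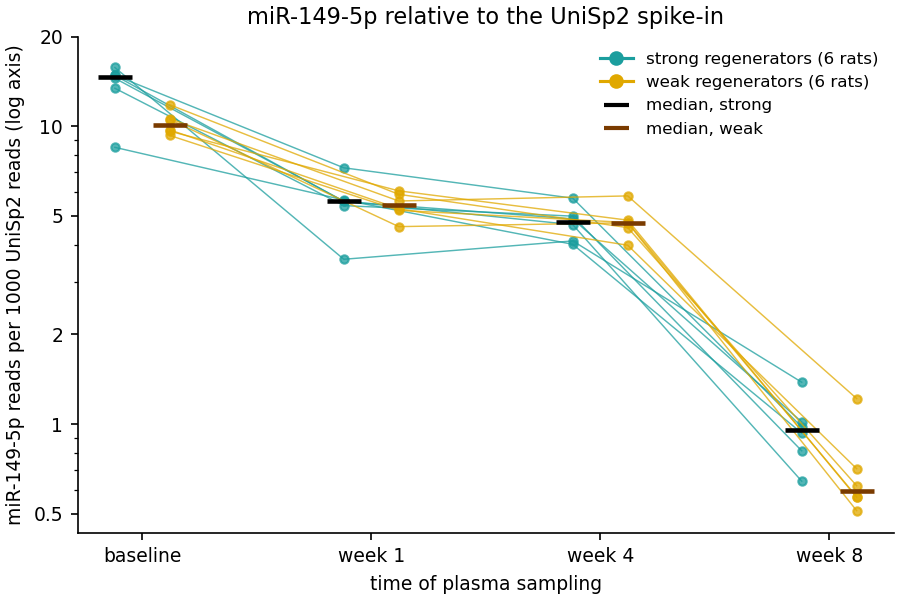
miR-149-5p reads per 1000 UniSp2 reads (log axis) at each time point, 1 point per sample, with a line for each rat and a bar at each group median. At week 1 the 12 rats span 3.58 to 7.26 and at week 4 they span 3.99 to 5.84, with the medians of the groups nearly level at both times.

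At weeks 1 and 4, samples with more UniSp2 reads per miRNA read had more miR-149-5p in RPM, and at baseline and week 8 this was not clear. The Pearson r of the log values was 0.84 at week 1 and 0.89 at week 4, and 0.32 at baseline and 0.36 at week 8 (12 rats each), with Spearman rho of 0.69, 0.92, −0.12 and 0.34 in the same order. Both measures are divided by the same miRNA total, which is why no test is given. The median r of the 310 abundant miRNAs was 0.18 at week 1 and 0.11 at week 4, and miR-149-5p had the 5th highest and the highest r there. Without the 2 rats farthest from the median of the spike-in ratio, r was 0.57 at week 1 and 0.91 at week 4 but −0.26 at baseline and 0.12 at week 8, so the values of the last pair rested on those rats.

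Haemolysis was followed by the log2 ratio of miR-451-5p, which is abundant in red blood cells, to miR-23a-3p, which is little affected by their lysis. The median of this ratio was 2.30 before surgery and 2.74, 2.55 and 3.03 at the later times in order. The r of this ratio with miR-149-5p was −0.63 over the 48 samples and −0.57 after removing the time point means. The part of haemolysis and of the spike-in ratio in the course of miR-149-5p was not tested.

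miR-149-5p was higher in strong than in weak regenerators on average, but the difference did not pass the adjusted test. The strong regenerators averaged 442, 226, 220 and 121 RPM at baseline and weeks 1, 4 and 8, and the weak regenerators 361, 211, 178 and 81.5 RPM. Over all time points the log2 fold change was 0.25 (SE 0.10), with an edgeR p of 0.0135 and a Benjamini-Hochberg adjusted p of 0.272 over 645 miRNAs. edgeR called 0 of 645 miRNAs in this comparison (0%), with 64 at an unadjusted p under 0.05, and DESeq2 also called 0, with 41. Neither fit had a term for the rat, so samples of one rat counted as independent. limma-voom, with the rat as a random effect, called 0, with 30 at an unadjusted p under 0.05. In that limma-voom fit miR-149-5p had a log2 fold change of 0.25 (SE 0.10) and a Benjamini-Hochberg adjusted p of 0.775. The study's own edgeR comparison over all time points names miRNAs at an adjusted p under 0.05, miR-149-5p not among them. The 0 calls here depart from that result, and the reason was not tested.

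The difference was then taken over animals. The mean log2(RPM + 1) of the 4 samples of a rat was 7.79 ± 0.26 in strong and 7.48 ± 0.20 in weak regenerators (SD, n = 6 each), a difference of 0.31. A two-sided exact permutation test over the 12 rats gave p = 0.0325, or 0.110 after Benjamini-Hochberg adjustment over the 6 comparisons made of miR-149-5p. The means of 4 strong rats lay above those of all weak rats. Without weak rat 3, the log2 fold change of the edgeR fit, which has no term for the rat, was 0.20 (unadjusted p = 0.0532).

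By time point the difference was largest at week 8 and smallest at week 1. The log2 fold change of strong against weak was 0.28 (SE 0.19) before surgery and then 0.03 (SE 0.20), 0.25 (SE 0.20) and 0.45 (SE 0.20) in time order. The adjusted p-values of edgeR with Benjamini-Hochberg were 0.725, 1, 0.851 and 0.747. edgeR called 0, 0, 0 and 1 of 645 miRNAs at these times (0.155% at week 8), with 42, 32, 25 and 35 at an unadjusted p under 0.05, and DESeq2 called 0 at each, with 32, 17, 13 and 28. The exact permutation test over the 12 rats gave p = 0.0628, 0.740, 0.199 and 0.0368, or 0.125, 0.888, 0.298 and 0.110 adjusted over the 6 comparisons.

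At week 8 a single rat on each side mattered most. Without weak rat 25 the log2 fold change at week 8 was 0.60, and without strong rat 23 it was 0.30. The median haemolysis ratio was 2.72 in strong and 3.15 in weak regenerators at that time, and UniSp2 gave a median of 131 and 114 reads per 1000 miRNA reads, and the part of either in the difference was not tested.

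Set against UniSp2, the picture by time point was different. At baseline the strong regenerators had 8.50, 14.7 and 15.8 miR-149-5p reads per 1000 UniSp2 reads as the lowest, median and highest value, and the weak regenerators 9.32, 10.1 and 11.8. All strong rats but rat 17, the lowest of all, lay above every weak rat. The log2 fold change on this scale was 0.41 (SE 0.20) at baseline, with an edgeR p of 0.0448 and a Benjamini-Hochberg adjusted p of 0.824. Without this scaling it was 0.28 (SE 0.19), and on this scale that of the median abundant miRNA was 0.09.

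At week 4 the groups were level on the UniSp2 scale. The strong regenerators had 4.01, 4.78 and 5.74 miR-149-5p reads per 1000 UniSp2 reads and the weak regenerators 3.99, 4.75 and 5.84. The log2 fold change was −0.01 (SE 0.20), against 0.25 by TMM, the scaling of edgeR to the bulk of the miRNAs, and that of the median abundant miRNA was −0.34. At week 1 it was 0.02 (SE 0.20) and at week 8 0.46 (SE 0.21).

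**Figure D3:**
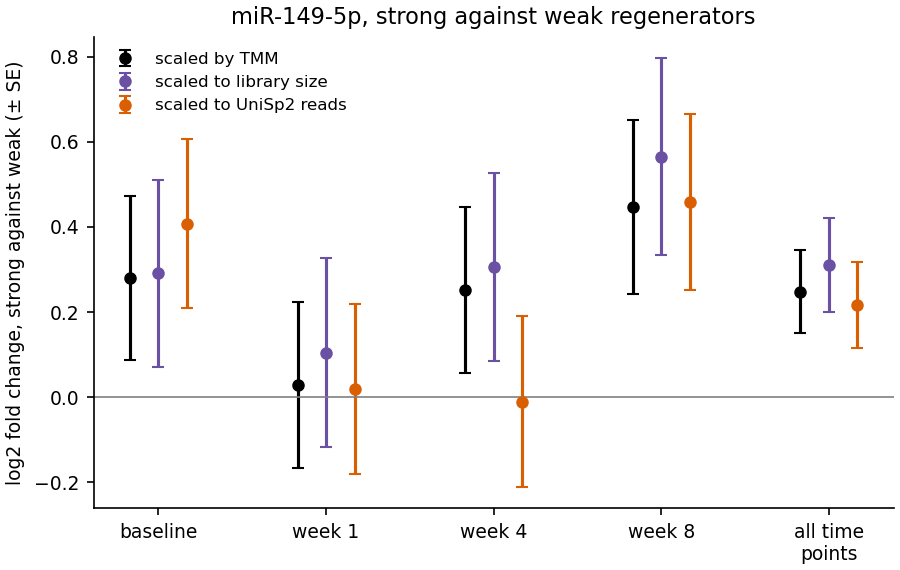
Log2 fold change of miR-149-5p in strong against weak regenerators at each time point and over all time points, as points with bars of 1 standard error, for 3 ways of scaling the counts. The values at week 1 stay near 0 under each scaling, those at week 8 lie between 0.45 and 0.57, and at week 4 scaling to UniSp2 gives −0.01 where TMM gives 0.25.

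No difference between the groups in the fall after surgery passed the test. The mean change of weeks 1, 4 and 8 from baseline was −1.32 ± 0.29 in strong and −1.33 ± 0.19 in weak regenerators (log2(RPM + 1), SD, n = 6 each), a difference of 0.02 with an exact permutation p of 0.9004. The edgeR interaction was −0.04 (SE 0.23, Benjamini-Hochberg adjusted p = 1.00), and edgeR called 0 of 645 miRNAs (0%), with 33 at an unadjusted p under 0.05 and 0 called by DESeq2, with 23. By time, the mean log2 change from baseline was −1.01 in strong and −0.81 in weak regenerators at week 1, −1.03 and −1.02 at week 4, and −1.90 and −2.17 at week 8, so the sign of the difference was not the same at weeks 1 and 8. Scaling to UniSp2 gave an edgeR interaction of −0.25 (SE 0.23, Benjamini-Hochberg adjusted p = 1.00), and p-values of this size do not show that the groups fell alike.

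The miRNAs nearest to miR-149-5p came from 6 hairpins. They were found by the Pearson r of log2(RPM + 1) over the 48 samples, which share 12 rats, 4 time points and the library totals, so r is a description. Over the 309 other abundant miRNAs the median r was 0.19, and 12 had an r above 0.8. The 10 nearest lay between 0.82 and 0.93, with Spearman rho of 0.80 to 0.94, and without the 2 samples farthest from the median of miR-149-5p r was 0.83 to 0.92.

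The nearest was miR-140-3p, the arm of the cartilage miRNA miR-140 that is abundant in plasma, with an r of 0.93. It came at 58635 RPM on average. Its level went from 95441 ± 15080 RPM at baseline to 56048 ± 8460, then 51492 ± 11268 and finally 31558 ± 5966 RPM (SD, n = 12 each). miR-140-5p, the other arm, had an r of 0.83. Their hairpin lies within Wwp2, a gene expressed in chondrocytes, on its strand.

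miR-455-5p (r of 0.90) and miR-455-3p (0.83) are the arms of a second hairpin known from cartilage. RefSeq places miR-455-3p within Col27a1, which encodes a fibrillar collagen of cartilage. All 4 members of the cartilage list, the arms of these hairpins, were among the 10 nearest of 309 abundant miRNAs. The list was written with earlier results of these data known, and the study reports these arms as lower at every time after surgery. Their place among the nearest was thus favoured by the choice, and nothing is read from the count. After the mean of each time point was subtracted, miR-140-3p, miR-455-3p and miR-455-5p ranked 1st, 3rd and 8th by r, and miR-140-5p ranked 106th.

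The miR-322 cluster, on the minus strand of chromosome X, gave 5 of its 11 members. The arms of miR-503 had an r of 0.91 (5p) and 0.88 (3p), those of miR-322 had 0.90 (3p) and 0.84 (5p), and miR-351-3p had 0.90. miR-322 is the rodent counterpart of miR-424, and its seed family restrains the cell cycle. miR-152-3p, which lies within Copz2, was the last of the 10 with 0.82. Just outside came miR-148a-3p and miR-214-3p, both with 0.80, and miR-434-3p with 0.78.

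**Figure D4:**
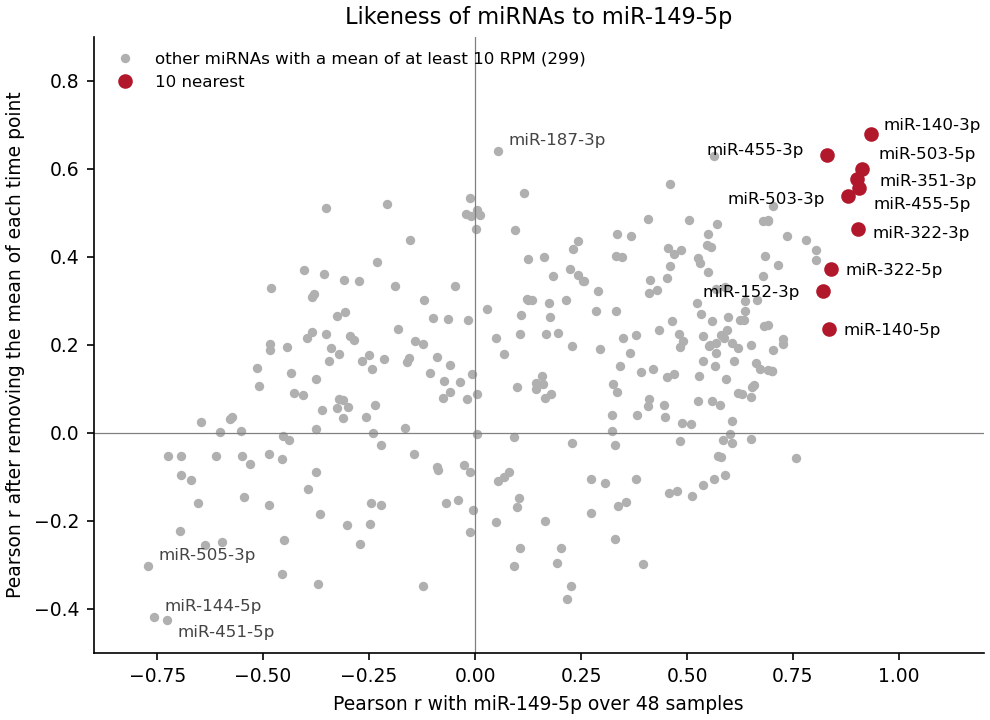
Pearson r with miR-149-5p over the 48 samples (horizontal) against r after subtraction of the mean of each time point (vertical), 1 point for each of 309 abundant miRNAs, with the 10 nearest in red. The 10 nearest lie between 0.82 and 0.93 on the horizontal axis and spread from 0.24 (miR-140-5p) to 0.68 (miR-140-3p) on the vertical axis.

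Much of the likeness lay between time points. After the mean of each time point was subtracted, the median r of the 10 nearest was 0.55, with a range from 0.24 to 0.68, and the median of all 309 was 0.16. miR-140-3p remained first with 0.68, ahead of miR-187-3p with 0.64 and miR-455-3p with 0.63. miR-187-3p stood at 0.05 over the 48 samples, so it varied with miR-149-5p among rats of one time point after surgery but not over time. Its r was 0.79, 0.70 and 0.62 at weeks 1, 4 and 8 but 0.20 at baseline. Of the 10 nearest, 6 were also among the 10 highest within time points.

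At single times miR-140-3p had an r of 0.82 at week 1, 0.78 at week 4 and 0.69 at week 8 but 0.43 at baseline (12 rats each), and at week 4 miR-351-3p and miR-322-5p, both with 0.84, were nearer. The median r of the 10 nearest was 0.63 at baseline, 0.48, 0.72 and 0.44 at weeks 1, 4 and 8. Over the 24 samples of each group r for miR-140-3p was 0.91 in strong and 0.95 in weak regenerators. These samples are part of those used for the choice and hold the course over time. A high r in each group was thus favoured by the choice, and nothing is read from it.

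All 10 lay below baseline at each time after surgery, with median log2 fold changes of −0.99, −1.20 and −2.27. Since they were picked for following a miRNA chosen for its fall, this direction was fixed by the choice and nothing is read from it. miR-149-5p itself, at −0.80, −0.93 and −1.94, was lowered less than 6, 7 and 7 of the 10. The largest log2 fold change at week 8 was that of miR-322-3p with −2.88 (SE 0.16), and the smallest that of miR-455-3p with −1.44 (SE 0.16). From week 4 to week 8, miR-455-3p changed by −0.19 (SE 0.16) and miR-149-5p by −1.02 (SE 0.15).

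**Figure D5:**
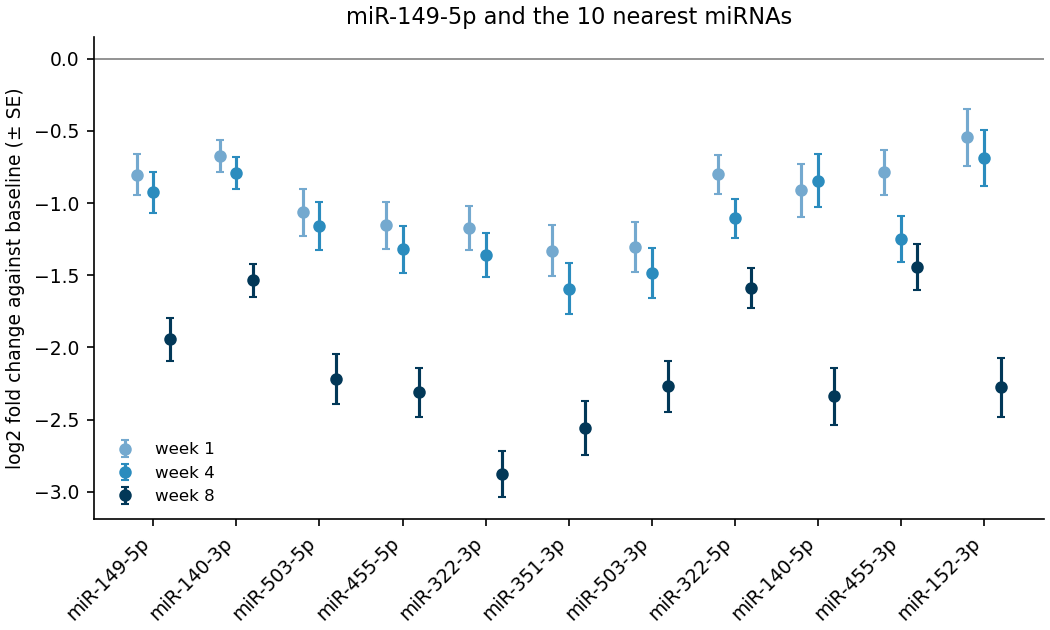
Log2 fold change against baseline of miR-149-5p and the 10 nearest miRNAs at weeks 1, 4 and 8, as points with bars of 1 standard error. Week 8 is the lowest for each miRNA, from −1.44 (miR-455-3p) to −2.88 (miR-322-3p), and for miR-455-3p week 4, at −1.25, lies nearer to week 8 than to week 1.

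The ratio of miR-149-5p to its neighbours, which needs no library total, showed where they parted. There were 4.27 ± 0.90 miR-149-5p reads per 1000 miR-140-3p reads at baseline and 3.85 ± 0.78, 3.88 ± 0.62 and 3.17 ± 0.86 at the later times in order (SD, n = 12 each), so miR-149-5p went down slightly further than miR-140-3p. Per 1000 miR-322-3p reads there were 139 ± 25.1, 183 ± 48.2, 185 ± 33.4 and 273 ± 96.4, so it went down less than miR-322-3p.

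At the other end, the most negative r belonged to miR-505-3p (−0.77) and to the red blood cell miRNAs miR-144-5p (−0.76) and miR-451-5p (−0.73), although 2 of the 8 red blood cell miRNAs had a positive r, up to 0.22. miR-451-5p took 80587 ± 27016 RPM at baseline and 155321 ± 26396 at week 8 (SD, n = 12 each). Its log2 fold change at week 8 was 1.04 (SE 0.19), while that of miR-144-5p was 1.15 (SE 0.18). RPM values share 1 total, so a rise of abundant miRNAs lowers the RPM of the rest.

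By marker list, the median r with miR-149-5p was 0.87 for cartilage (4 miRNAs), 0.76 for the miR-322 cluster (11) and 0.63 for leukocytes (5). It was 0.14 for mesenchyme (5), 0.10 for liver (5 of 6 abundant), 0.08 for platelets (6) and 0.01 for muscle (3 of 7 abundant), where the median of all 309 was 0.19. It was −0.31 for brain (4 of 7 abundant) and −0.44 for red blood cells (8). Within lists the members could differ, and those of the leukocyte list ran from −0.60 to 0.68, with 3 of 5 positive. Those of platelets ran from −0.60 to 0.70, with 3 of 6 positive. Those of mesenchyme ran from −0.37 to 0.80 (miR-214-3p), with 4 of 5 positive. After the mean of each time point was subtracted, the median r was 0.59 for cartilage, 0.49 for muscle, 0.30 for the miR-322 cluster, 0.26 for liver, 0.24 for leukocytes and −0.23 for red blood cells. It was 0.17 for platelets, 0.10 for mesenchyme and 0.06 for brain, where that of all 309 was 0.16. The summed level of the cartilage list ran from 64623 to 120484 RPM at baseline and from 26767 to 48176 RPM at week 8, and that of red blood cells from 266386 to 369955 and from 355671 to 482992 RPM. The cartilage sum was mostly miR-140-3p, which averaged 95441 RPM at baseline and 31558 RPM at week 8. The lists were written with earlier results of these data known. Most members of the cartilage and miR-322 lists are reported by the study as lower at every time after surgery. A high median r of these lists was thus favoured by the choice of miR-149-5p. The part of these cell types in the course of miR-149-5p was not tested.

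The neighbours had small log2 fold changes between the regeneration groups. Over all time points their log2 fold changes of strong against weak ran from 0.02 to 0.29 with a median of 0.15. They were picked on the same 48 samples, so a shared sign with miR-149-5p was favoured by the choice and is no support for its difference. miR-149-5p, at 0.25, was above 9 of the 10, with miR-503-5p at 0.29 (SE 0.11) the exception. At week 8 its 0.45 stood above all 10, whose median was 0.07.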

How the data were processed

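Plasma RNA of 48 samples was sequenced as small RNA libraries. The deposited values are raw read counts per mature miRNA and per spike-in. According to the methods and the submitters' processing notes, the authors checked reads with FastQC 0.11.9 and MultiQC 1.10, trimmed them with cutadapt 3.3 and mapped them first to the rat genome, then to the rat entries of miRBase, using Bowtie 1.3.0 and miRDeep2. The notes list a human build, and the methods a rat one. No molecular identifiers are mentioned, so counting errors leave out amplification.

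RPM were counts divided by the summed miRNA count of a sample, without the 3 spike-ins, and logs used a pseudocount of 1. Groups were compared with edgeR 4.0.16 (quasi-likelihood test, TMM, all 645 miRNAs, independent filter on abundance, Benjamini-Hochberg, threshold 0.05) in R 4.3.3, with DESeq2 1.42.0 and limma 3.58.1 as alternatives, and with exact permutation over the 12 rats (SciPy 1.17.1, smallest possible two-sided p 0.00216). Correlations over rats used 100000 permutations. The edgeR steps were tested on simulated data. The simulation held no rat effect and only changes larger than the strong against weak differences found here. It therefore does not check the fit for paired samples or for differences of that size.

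Each rat gave 1 sample per time point, and samples of one rat are paired by the labels. The deviations of samples of the same rat correlated at 0.107 on average, against −0.03 for different rats, and exceeded 0.1 in 6 of 12 rats. No 2 samples agreed within sampling noise (chi-square per degree of freedom 23.0 to 848 over 1128 pairs).

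Named miRNAs were miR-149-5p, listed miRNAs with its seed, the 10 nearest and the 3 most negative by r, the 3 nearest within time points, miR-451-5p, miR-23a-3p and UniSp2. The miRNAs just outside the 10 are given as well. miR-149-3p was planned but is not listed in the counts. The miRNA, the lists and the tests were chosen with earlier results of these data known.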

Additional observations from a re-analysis of the deposited data

Results flagged for a closer look

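In the weak regenerators at baseline, rat 3 had 247 RPM of miR-149-5p, and the nearest other rat had 356 RPM. Its gap to that rat was 0.638 of the range of the group, above the Dixon limit of 0.625 for 6 samples. The same rat was also lowest of its group at week 1, with 107 RPM.

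In the weak regenerators at week 8, rat 25 had 139 RPM, and the nearest other rat had 78.8 RPM. Its gap was 0.812 of the range of the group. Of the 8 groups tested in this way 2 had such a sample, where chance gives about 1 in 20.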

How the results depend on the processing

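The 6 strong against weak comparisons were recomputed under 112 alternatives. None passed the adjusted threshold, and 102 kept the sign. In each of the 6 comparisons the alternative without a filter could not differ, since the main filter kept all 645 miRNAs. Over all time points the log2 fold change was 0.20 to 0.31, and 0.196 to 0.289 when 1 rat was left out. The difference in the change from baseline, near 0, turned to 0.0346 with library size alone and ran from −0.0910 to 0.0718 without 1 rat (0.0642 without rat 3, 0.0718 without rat 5, 0.0101 without rat 7, 0.0642 without rat 23, 0.0220 without rat 25). The strong against weak difference at week 1 ran from −0.114 to 0.113 (−0.114 without rat 3, −0.0618 without rat 21, −0.0365 without rat 29). Scaling to UniSp2, added for single time points and the difference in change after seeing the data, gave −0.0106 at week 4 and −0.252 for the difference in change (SE 0.23). The cause of these reversals was not tested.

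Scaling to UniSp2 moved the week 8 log2 fold change against baseline from −1.94 to −3.84 and, as an alternative added after seeing the data, that from week 4 to week 8 from −1.02 to −2.52. Of the 10 nearest miRNAs, 6 stayed when deviations from time point means were used and 3 with deviations from the means of the 8 groups, an alternative added after seeing the data. With the rat as a replicate block in edgeR the log2 fold changes against baseline were −0.80, −0.91 and −1.95, and the difference in change was −0.05. A rat block cannot estimate strong against weak, which differs only between rats. limma-voom with the rat as a random effect gave 0.25 for it (Benjamini-Hochberg adjusted p = 0.775). No call changed. miR-149-3p could not be run. The 31 to 134 reads of week 8 limit the precision there.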
